A study of Rattus norvegicus with 39 samples.

Results

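Gene expression was compared between the livers of 5 rats given DNP and of 9 untreated rats, and these 14 arrays were chosen by their titles from the 39 arrays of the series. DNP, which the labels give only by its abbreviation, is taken here to be dinitrophenol. The DNP rats received 15 mg/kg in water by mouth, and their livers were taken 48 h after treatment. The control rats were untreated, with no vehicle and no gavage named, so that compound, water and oral dosing cannot be told apart. All rats were between 5 and 6 weeks old, and neither strain nor sex is given in the labels. The RNA was that of the left lateral lobe, and each liver had 1 Affymetrix rat expression array. The other 25 arrays belong to 5 compound groups of 5 rats each (ANIT, Caerulein, DMN, NMF and Roziglitazone). They serve here to estimate the spread between arrays and as a second point of comparison. ANIT was given at 125 mg/kg in corn oil and DMN at 15 mg/kg in water, both by mouth. Caerulein at 50 µg/kg and NMF at 1000 mg/kg were given i.p. in saline, and Roziglitazone at 1000 mg/kg by mouth in methylcellulose. These livers were also taken at 48 h. In that comparison dose, vehicle and route cannot be told apart from compound. The values are log2 intensities of 14217 genes, a difference of 1 is 2-fold, and precision is limited by how many arrays a group has.

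Dinitrophenol is the classical chemical uncoupler of oxidative phosphorylation. As a weak acid that dissolves in membranes it carries protons back across the inner mitochondrial membrane, so that the respiratory chain runs without driving ATP synthase and the energy of the proton gradient is lost as heat. Cells under an uncoupler burn more fuel, and AMP-activated kinase, the integrated stress response and the PGC-1 coactivators are the known routes by which a loss of mitochondrial energy reaches the nucleus. In the liver, which oxidizes fatty acids and makes glucose and lipid for the body, the genes of these routes are well known, and they set the order in which the results are given.

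No gene passed the test between DNP and untreated liver. With limma and Benjamini-Hochberg adjustment over all genes, 0 of 14217 genes were called at an adjusted p under 0.05 (0%), the lowest adjusted p was 0.999996, and 199 genes (1.4%) had an unadjusted p under 0.05, 121 of them higher and 78 lower in DNP. The share of 1.4% was below the 0.05 that the test would give on average if no gene differed. The 95% interval of the difference, unadjusted for the number of genes, lay wholly within 2-fold for 13538 genes (95.2%). The median SE of a difference was 0.20. Differences beyond 2-fold were estimated for 14 genes, of which 7 were higher and 7 lower, and none of them was called. In the same fit and against the same 9 controls, 2344 genes (16.5%) were called for ANIT, 1478 (10.4%) for DMN and 1063 (7.48%) for NMF, and 0 for Caerulein and for Roziglitazone. The contrasts share their controls. A p that misses the threshold does not show that DNP and untreated liver were alike. The SEs and intervals, here and below, rest on the spread within all groups, the other compounds included. They can therefore be wider or narrower than the DNP and control arrays alone would give. The SE was 0.37 for Cyp2c11, with SDs of 0.11 in DNP and 0.13 in controls. For Cltrn it was 0.19, with SDs of 0.87 in DNP and 0.12 in controls. With only the 5 DNP and 9 control arrays in limma, 0 genes were called and 218 had an unadjusted p under 0.05.

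**Figure D1:**
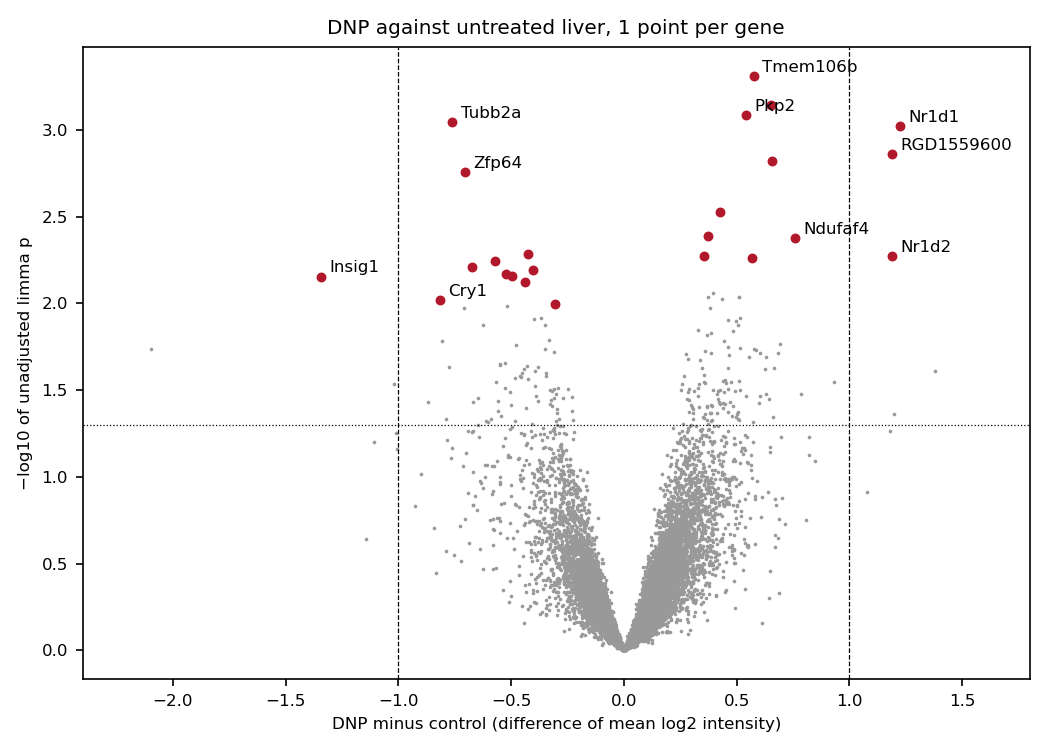
Difference of mean log2 intensity between DNP (5 arrays) and control (9 arrays) on the x axis against −log10 of the unadjusted limma p on the y axis, 1 point per gene for 14217 genes. Dashed lines mark 2-fold, the dotted line marks an unadjusted p of 0.05, and the genes of lowest p in each direction are in red. None of the points was called after adjustment, and most lie within 2-fold.

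The tissue label was checked against marker genes. Alb, which encodes albumin, stood between 14.40 and 14.49 on all 14 arrays, next to the highest reading of the series at 14.50, so that its level is near the top of the scale and a difference in it could not be read. The 95% interval of the difference was within 2-fold for all 12 hepatocyte markers, Alb among them. On average over these 12 genes the array DNP 1 was 0.35 and control 5 was 0.25 below the control mean, each the lowest of its group. These arrays also stood apart in a measure of RNA quality. The probe sets for the 3′ end of GAPDH, a glycolytic enzyme used to judge arrays, gave 9.99 on DNP 1 and 12.68 to 12.85 on the other DNP arrays, and 8.09 on control 5 and 12.75 to 13.16 on the other controls. The 5′ end gave 7.24 on DNP 1, 6.34 on control 5 and 7.42 on control 4, against at least 11.59 on the other DNP and control arrays. Without DNP 1 and control 5 there were still 0 calls against control, with 257 genes at an unadjusted p under 0.05. Of the other compound groups, the arrays labelled ANIT 3, DMN 2 and Roziglitazone 2 went against their labels in earlier work on these data. They enter the comparison with the other compounds and, through the shared spread, the errors of DNP against control, where 0 genes were called and 256 had an unadjusted p under 0.05 in limma without them.

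The machinery that an uncoupler acts on was measured through 69 genes of oxidative phosphorylation. Their median difference was −0.09, beside 0.04 over all genes tested, 67 of the 69 intervals lay within 2-fold, and 0 were called (0% of all genes). In complex I, which passes electrons from NADH into the chain, the median of 33 subunit genes was −0.14, and 3 of them were above the control mean. The array means of complex I ranged from −0.46 to 0.17 in DNP and from −0.23 to 0.17 in the controls, so that the groups overlapped and the lowest values came from DNP 3 and DNP 2. Ndufa11, which encodes an accessory subunit of complex I, was the gene of these 69 with an unadjusted p under 0.05, at a difference of −0.23 ± 0.11 (SE; limma, unadjusted p = 0.0418). The extremes of the list were Ndufb7, another accessory subunit, at −0.32 ± 0.23, and Uqcrc2, a core protein of complex III, at 0.38 ± 0.34. The 10 genes of complex IV had a median of −0.05 and the 14 genes of ATP synthase, which makes ATP from the proton gradient, a median of −0.03. All 24 intervals of these last groups were within 2-fold. Values of Ndufaf4, an assembly factor of complex I that was not on the list, are given below.

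Uncoupling proteins are counted among the cell's own routes for protons back into the matrix. Ucp2, the form known from many tissues, read 9.18, 9.20, 9.92, 9.45 and 9.68 on DNP arrays 1 to 5, and ranged from 8.98 over a median of 9.40 to 10.01 in the controls. The groups overlapped fully, with a difference of 0.02 ± 0.23 (95% interval −0.45 to 0.49). Ucp1, the uncoupler of brown fat, differed by 0.03 ± 0.19 and Ucp3, the form of muscle, by 0.01 ± 0.19. Ucp1 at 4.94 ± 0.24 (SD, n = 5) in DNP stood close to the range of 3.49 to 4.70 spanned by the mean readings of 12 bacterial spike-in probe sets, which is taken here as background. The intervals of all 6 uncoupling protein genes were within 2-fold. The ADP/ATP carriers Slc25a4 and Slc25a5, which exchange ATP for ADP across the inner membrane, differed by 0.03 ± 0.19 and by −0.00 ± 0.15.

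Among the 26 genes of carriers and pores, 24 intervals were within 2-fold and the median was 0.01. The largest difference was that of Slc25a1, the citrate carrier that supplies carbon for lipid synthesis, at −0.57 ± 0.58. Slc25a1 read 6.90, 11.12, 11.49, 10.81 and 10.76 on DNP arrays 1 to 5, and 7.01 on control 5, with a control median of 11.19 and a highest value of 11.73. The arrays DNP 1 and control 5, the pair with low GAPDH, were thus far below all the others, and the remaining arrays of both groups overlapped. Gstm2, a glutathione transferase, showed the same array DNP 1 at 6.98 and the other DNP arrays at 11.78 to 12.67. The part of RNA quality in these readings was not tested.

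**Figure D2:**
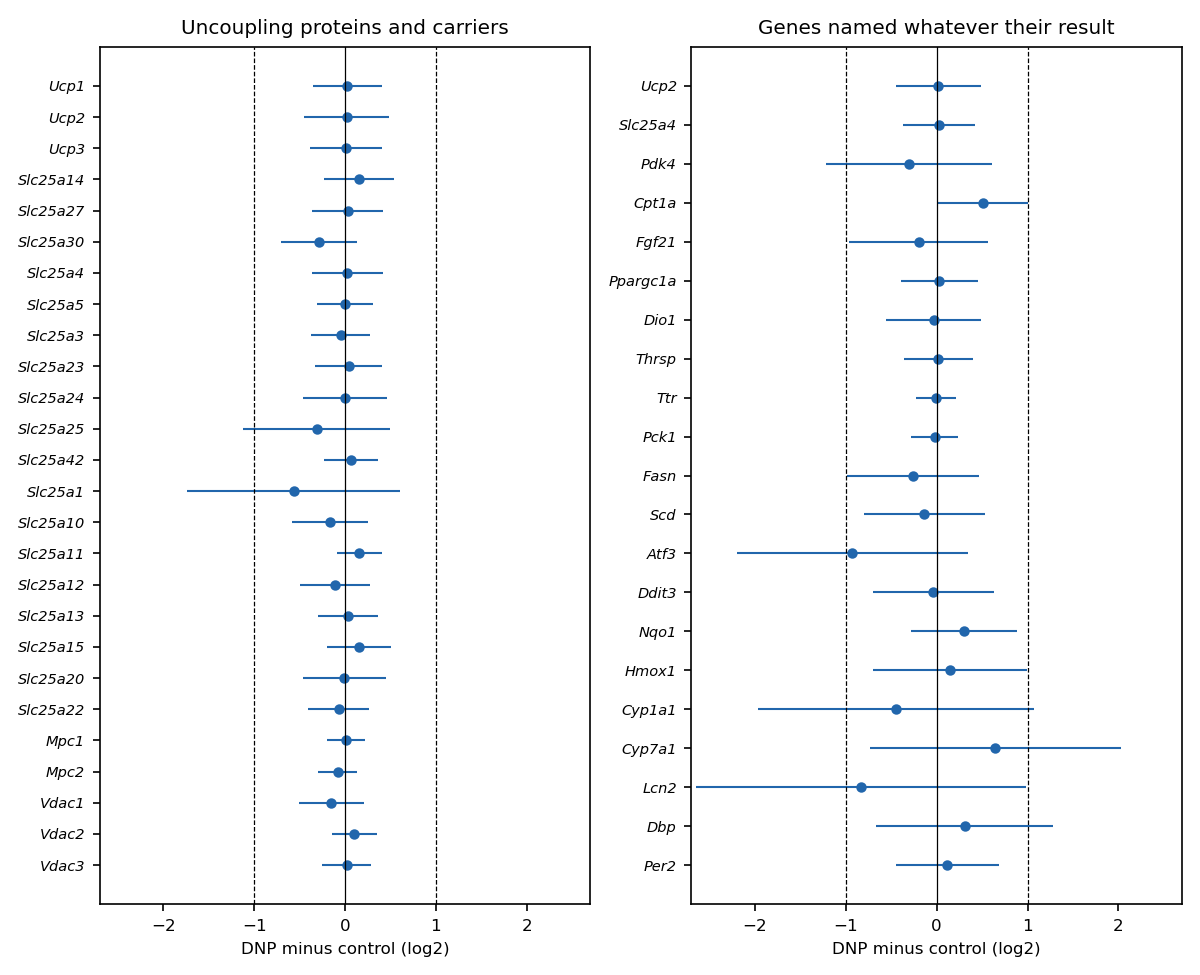
Difference between DNP and control with its unadjusted 95% interval from limma, on the log2 scale, for 26 uncoupling protein and carrier genes (left) and for 21 genes named whatever their result (right). Dashed lines mark 2-fold. All 6 uncoupling proteins lie within 2-fold, and Slc25a1 has the widest interval of the carriers.

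Fuel use was followed through pyruvate and fatty acid oxidation. The 20 genes of pyruvate oxidation and the citric acid cycle had a median of 0.05, and 19 intervals were within 2-fold. Pdk4, the kinase that shuts off pyruvate oxidation when fat is burned, read 10.36, 10.04, 9.94, 8.70 and 8.40 on DNP arrays 1 to 5. Control arrays ran from 8.32 over a median of 9.90 to 10.18, and the lowest was control 8. DNP arrays 4 and 5 were therefore low and the other DNP arrays within or just above the control range, with a difference of −0.31 ± 0.45 (95% interval −1.22 to 0.61). It was −0.52 without DNP 1 and −0.036 without DNP 5.

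The list of fatty acid oxidation and targets of PPARA, the receptor that switches this pathway on, had 37 measured genes, of which 28 were above the control mean. Their median was 0.07, against 0.04 over all genes, and 0 were called (0% of all genes). In mitochondrial oxidation 16 of 18 genes were above the control mean, with a median of 0.10 and array means from −0.13 to 0.32 in DNP and from −0.22 to 0.15 in the controls. Cpt1a, the enzyme that commits fatty acids to mitochondrial oxidation, read 11.85, 11.90, 11.06, 11.70 and 11.53 on the DNP arrays. The controls ranged from 10.54 over a median of 11.02 to 11.98. The DNP arrays lay in the upper part of the control range, DNP 3 near its median, and the difference was 0.51 ± 0.25 (limma, unadjusted p = 0.0463). The highest control reading of Cpt1a came from control 5, and without DNP 1 and control 5 the difference was 0.56. Cpt1a averaged 11.61 in DNP, 11.10 in controls, 11.56 in Caerulein, 11.53 in NMF and 11.39 in Roziglitazone. In ANIT and in DMN its mean was 10.74. Decr1, which handles unsaturated fatty acids in the same pathway, differed by 0.38 ± 0.18 (limma, unadjusted p = 0.043). Angptl4, a secreted inhibitor of lipoprotein lipase and a PPARA target, went in the other direction by the fit, at −0.79 ± 0.38 (limma, unadjusted p = 0.0466). Angptl4 read 11.16, 9.89, 8.30, 9.71 and 10.56 in DNP and 10.08 to 11.20 in the controls, so that DNP 3 was the lowest and DNP 1 was near the highest control.

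Sugar and lipid synthesis gave values of the same order. The 19 genes of glycolysis had a median of 0.01 with 18 intervals within 2-fold, and the 16 genes of gluconeogenesis, glycogen and fasting a median of −0.02 with 15 within. Pck1, the enzyme that commits carbon to glucose synthesis, differed by −0.02 ± 0.13. The 21 genes of fatty acid and triglyceride synthesis had a median of −0.11 and 3 of them were above the control mean, but the array means spread from −0.48 to 0.18 in DNP and from −0.42 to 0.37 in the controls. Fasn, the fatty acid synthase, differed by −0.26 ± 0.36 (−0.12 without DNP 4, −0.39 without DNP 2), and Scd, which puts the first double bond into fatty acids, by −0.14 ± 0.33. Lpin1, a phosphatidate phosphatase of triglyceride synthesis, had the lowest value of this list at −0.78 ± 0.41, with DNP 2 at 11.49 and the other DNP arrays at 9.25 to 9.63.

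Cholesterol synthesis was represented by 20 genes with a median of −0.17 (4 above the control mean, 16 intervals within 2-fold). Insig1, the membrane protein that holds the sterol sensor in the endoplasmic reticulum and is itself a target of the sterol response, had the largest difference of the list. Insig1 read 8.73, 12.26, 10.82, 9.61 and 9.83 on the DNP arrays and 10.48 to 12.51 in the controls, with a median of 11.62. DNP arrays 1, 4 and 5 were below every control, DNP 3 was inside the lower end and DNP 2 near the top, and the difference was −1.34 ± 0.47 (limma, unadjusted p = 0.00701). Without DNP 1 and control 5 it was −0.98. The Insig1 mean was 12.59 in ANIT and 10.70 to 11.24 in the remaining compounds, beside 10.25 in DNP and 11.59 in controls. Sqle, a rate-controlling enzyme of the pathway, differed by 0.22 ± 0.42.

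Thyroid hormone sets the resting metabolic rate, and dinitrophenol has long been known to compete with it for its carriers in blood, of which transthyretin is the main form in the rat. Of 16 thyroid genes 14 had intervals within 2-fold, and the median was −0.01. Ttr, which encodes transthyretin, differed by −0.01 ± 0.11, and read 13.43 on DNP 1 and 13.31 on control 5 against at least 13.80 on all other DNP and control arrays. Dio1, the deiodinase that the hormone induces in liver, read 9.28, 7.95, 7.78, 8.46 and 8.97 on the DNP arrays and 8.03 to 8.92 in the controls, so that DNP lay on both sides of the controls (−0.03 ± 0.26). Thrsp, a lipogenic target of the hormone, differed by 0.02 ± 0.19 (95% interval −0.36 to 0.40). The receptors Thra and Thrb differed by −0.02 ± 0.15 and −0.06 ± 0.21. Serpina7, the thyroxine-binding globulin, had the largest value of the list at 0.68 ± 0.46.

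Genes through which cells answer a loss of mitochondrial energy were described as groups. The 26 genes of the integrated stress response had a median of −0.05, with 24 intervals within 2-fold. Atf3, a transcription factor at its end, differed by −0.93 ± 0.63, Ddit3, which encodes CHOP, by −0.04 ± 0.33, and Fgf21, a hormone released under mitochondrial stress, by −0.20 ± 0.38 (−0.053 without control 4 and −0.31 without control 5). Sesn2, a stress-induced regulator of growth signalling, was the list's gene with an unadjusted p under 0.05 (−0.50 ± 0.23; limma, unadjusted p = 0.0324). The 19 genes of AMP-activated kinase and energy sensing had a median of 0.02, and Rptor, the substrate adaptor of the growth kinase complex mTORC1, was at −0.35 ± 0.14 (limma, unadjusted p = 0.0182). All 12 genes of mitochondrial chaperones and proteases had intervals within 2-fold. Ppargc1a, the coactivator that drives mitochondrial biogenesis, differed by 0.03 ± 0.21 (95% interval −0.40 to 0.45), and the 17 genes of its list had a median of 0.08. The 18 genes of the hypoxia response had a median of 0.11, with the mitophagy receptor Bnip3 at 0.38 ± 0.19 as the highest.

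Handling of the compound and of reactive oxygen was followed in 3 lists. In the list of NRF2 targets and antioxidants 30 of 36 intervals lay within 2-fold and the median was −0.08. Nqo1, a quinone reductase and standard NRF2 target, read 10.87, 9.96, 10.31, 10.04 and 10.63 in DNP, and the controls ran from 8.44 on control 8 to 10.80 (difference 0.30 ± 0.29). Hmox1, heme oxygenase, differed by 0.14 ± 0.42, with DNP 2 at 11.66 and the other DNP arrays at 8.97 to 10.13. Among the 21 genes that reduce nitro groups or conjugate the products the median was −0.02, and the sulfotransferase Sult1b1 was at 0.33 ± 0.13 (limma, unadjusted p = 0.0142). Of 31 cytochromes P450 for foreign compounds 29 intervals lay within 2-fold and the median was −0.01. Cyp1a1, the classical target of the aryl hydrocarbon receptor, differed by −0.45 ± 0.75, and the highest control reading of 8.30 came from control 1.

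The genes with the lowest p included several of the circadian clock. The 17 clock genes had a median of 0.12, and 11 intervals were within 2-fold. In limma 3 of them had an unadjusted p under 0.05, beside 1.4% of all genes, and 0 were called (0% of all genes). Nr1d1 and Nr1d2 encode REV-ERB-alpha and REV-ERB-beta, heme-binding repressors that hold down Bmal1 in the loop of the clock. The labels give no time of day.

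Nr1d1 read 8.40, 8.61, 8.83, 9.14 and 9.17 on DNP arrays 1 to 5, and the controls ran from 6.84 over a median of 7.25 to 8.55. All DNP arrays but DNP 1 were above the highest control, and the difference was 1.23 ± 0.34 (95% interval 0.53 to 1.92; limma, unadjusted p = 0.000956, adjusted p = 0.999996). Nr1d2 read 7.93, 8.47, 8.23, 8.27 and 8.22 in DNP, with controls from 5.33 over a median of 7.22 to 9.21. The highest control was control 5, the array low in GAPDH, and the difference was 1.19 ± 0.40 with it and 1.46 without it. In the other compound groups Nr1d1 averaged 7.47 ± 0.23 in ANIT and 8.38 ± 0.29 in Caerulein, and Nr1d2 averaged 8.54 ± 0.19 in ANIT and 7.74 ± 0.95 in Caerulein (SD, n = 5 each). The Nr1d2 mean of the DNP arrays, 8.22, thus lay between those of other compound groups. These group means, 7.74 to 8.54, were all above the control mean of 7.03.

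Cry1, a repressor of the clock whose gene is itself a target of the REV-ERB proteins, read 8.05, 6.72, 7.22, 7.71 and 7.63 in DNP and 7.23 to 9.11 in the controls with a median of 8.36. DNP 2 and DNP 3 were below the controls, the others in their lower part, and the difference was −0.82 ± 0.30 (limma, unadjusted p = 0.00953). The Cry1 means of the other compounds, 7.26 to 8.04, were also below the control mean of 8.28. Bmal1, the activator that the REV-ERB proteins repress, read 7.05, 8.26, 8.64, 8.06 and 7.77 in DNP and 7.94 to 8.71 in the controls (−0.45 ± 0.27). DNP 1 and DNP 5 were below the controls, and DNP 3 was inside the upper part of their range. Of the output genes that follow the clock, Dbp differed by 0.31 ± 0.48, Tef by 0.16 ± 0.15 and Hlf by 0.15 ± 0.27, and of the repressors Per1 by −0.17 ± 0.22, Per2 by 0.12 ± 0.28 and Per3 by 0.33 ± 0.21. Dbp read 5.92 on DNP 1 and 7.32 to 7.74 on the other DNP arrays, and its difference was 0.64 without DNP 1 and 0.049 without control 4.

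**Figure D3:**
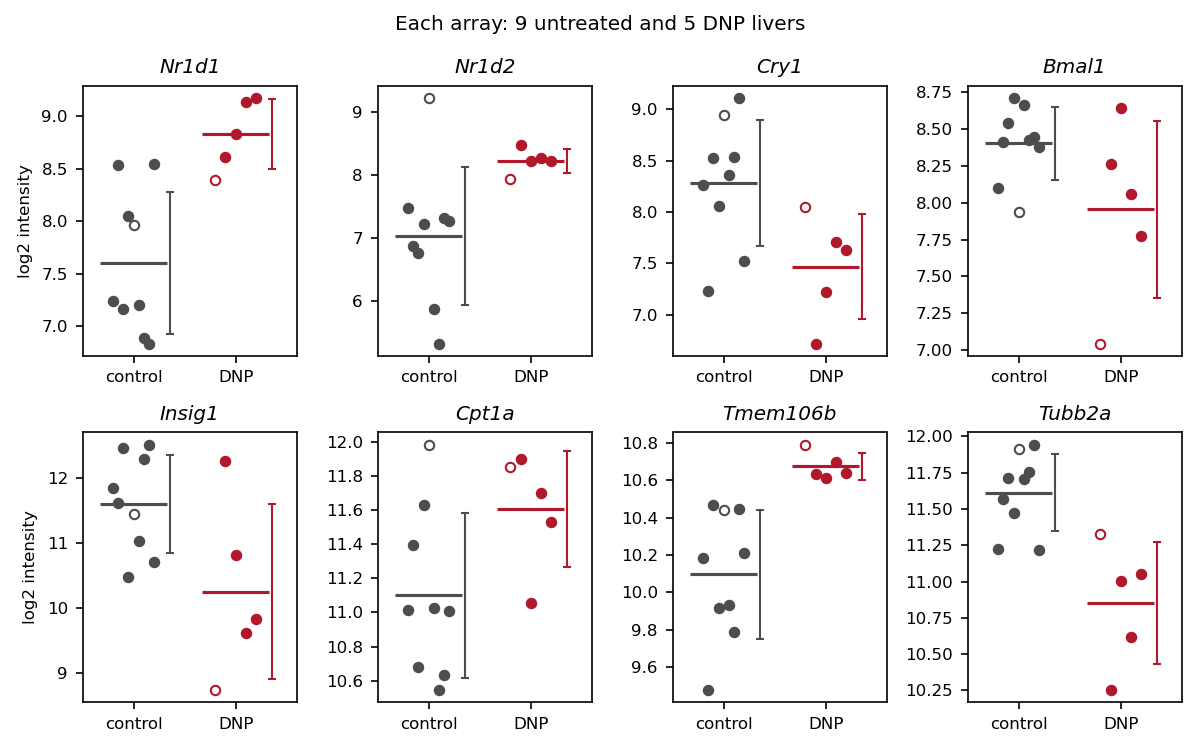
Log2 intensity of 8 genes on each of the 9 control and 5 DNP arrays, with the group mean (line) and SD (bar). Open points are control 5 and DNP 1, the arrays low in GAPDH. Nr1d1 is high on the DNP arrays with 1 of them inside the control range, Tmem106b does not overlap, and the other genes overlap.

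Promoter sequences are shown for the repressor Nr1d1 and for Bmal1, the gene it acts on, because they hold the sites through which the clock loop is known to run. They are the 250 bases before the start site in RefSeq, build GRCr8, written 5′ to 3′ on the gene's strand, and capitals mark the motif found. The Nr1d1 sequence belongs to the start site listed as 2 and lies at chr10:84229455-84229704 on the minus strand, with the E-box CACGTG, which activators of the clock bind, 191 to 186 bases before the start. The Bmal1 sequence lies at chr1:176766078-176766327 on the plus strand, with the core TNGGTCA, which REV-ERB and the competing ROR activators bind, 16 to 10 bases before the start.
Nr1d1: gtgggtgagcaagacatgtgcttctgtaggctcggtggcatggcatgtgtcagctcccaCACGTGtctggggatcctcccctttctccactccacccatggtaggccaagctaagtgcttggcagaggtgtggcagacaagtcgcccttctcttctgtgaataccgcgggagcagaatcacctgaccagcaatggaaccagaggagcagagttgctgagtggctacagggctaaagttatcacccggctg
Bmal1: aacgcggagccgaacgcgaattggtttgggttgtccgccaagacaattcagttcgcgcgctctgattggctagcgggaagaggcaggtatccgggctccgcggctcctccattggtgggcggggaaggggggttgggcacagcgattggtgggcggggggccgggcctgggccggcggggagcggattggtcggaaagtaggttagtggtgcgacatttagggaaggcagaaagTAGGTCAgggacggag
On either strand, CACGTG was found in 5.59% and TNGGTCA in 9.47% of 33465 promoter windows of this length. Neither motif was found in the Nr1d2 window or in the window of the start site of Nr1d1 listed as 1.

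Outside the lists, Tmem106b, which encodes a membrane protein of lysosomes, had the lowest p. Tmem106b read 10.79, 10.63, 10.61, 10.70 and 10.64 in DNP and 9.48 to 10.47 in the controls, with a median of 10.18. All 5 DNP arrays were above all 9 controls, and the difference was 0.58 ± 0.15 (limma, unadjusted p = 0.000488, adjusted p = 0.999996). Tubb2a, a beta-tubulin, read 11.33, 10.25, 11.01, 10.62 and 11.05 in DNP and 11.22 to 11.94 in the controls. DNP 1 was inside the control range and the other DNP arrays were below it, with a difference of −0.76 ± 0.21 (limma, unadjusted p = 0.000899). Tubb2a averaged 10.85 in DNP and 11.61 in controls, and was also low in Caerulein at 10.95 and Roziglitazone at 11.05. Its means were 12.06 in ANIT, 11.57 in DMN and 11.86 in NMF. In 6 genes the 5 DNP arrays lay wholly outside the range of the controls (0.0422% of those tested): Tmem106b, Larp1b, Prps2 and LOC102549032 on the high side and Pnrc1 and Tm7sf3 on the low side. Larp1b, which encodes an RNA-binding protein, read 9.34 to 9.38 on the DNP arrays and 8.68 to 9.27 in the controls. Prps2, an enzyme that makes the sugar phosphate for nucleotides, read 8.57 to 8.80 in DNP and 7.97 to 8.54 in the controls. Its means in the other compounds were 8.38 to 8.92, beside 8.67 in DNP and 8.30 in controls. Larp1b, Pnrc1 and Tm7sf3 were singled out after their values were seen.

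RGD1559600, another gene of low p, read 9.68, 8.55, 9.56, 9.67 and 9.25 in DNP and 6.75 to 8.94 in the controls with a median of 8.19. All DNP arrays but DNP 2 were above the highest control, and the difference was 1.19 ± 0.34 (limma, unadjusted p = 0.00138, adjusted p = 0.999996). The RGD1559600 means of the other compounds, 8.41 to 9.03, lay between the control mean of 8.15 and the DNP mean of 9.34. Ndufaf4, the assembly factor of complex I, read 8.87, 8.43, 8.24, 9.54 and 8.96 in DNP and 6.93 to 8.97 in the controls, a difference of 0.76 ± 0.25 (limma, unadjusted p = 0.00422). DNP 4 was the array above all controls. The Ndufaf4 means of the other compounds, 8.69 to 9.39, were also above the control mean of 8.05. Pkp2, which encodes a desmosome protein, differed by 0.54 ± 0.15, Nifk by 0.43 ± 0.13 and Rsl1d1, both nucleolar proteins, by 0.35 ± 0.12. Pkp2 averaged 9.09 in DNP, 8.55 in controls, 9.29 in Caerulein and 9.05 in Roziglitazone. Its means were 8.85 in ANIT, 8.52 in DMN and 8.45 in NMF. The Nifk means of the other compounds, 9.57 to 9.86, were all above the control mean of 9.29. Those of Rsl1d1, 9.03 to 9.35, were all above its control mean of 8.91. C5h6orf163 (0.65 ± 0.18), LOC102549032 (0.66 ± 0.19) and Cltrn (0.57 ± 0.19) had control means inside the background range. For Cltrn, which encodes collectrin, a single array decided the value: DNP 4 was at 5.58 and the other DNP arrays at 3.51 to 4.42, and the difference was 0.21 without DNP 4.

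On the low side Zfp64 and Zfp382, which encode zinc finger proteins, differed by −0.70 ± 0.21 and −0.57 ± 0.20, and the DNP mean of Zfp382, 4.28, was inside the background range. Rab5c, a small GTPase of early endosomes, was at −0.42 ± 0.14, Ehbp1l1 at −0.40 ± 0.14 and Smim3 at −0.67 ± 0.23. Mrpl14, a protein of the mitochondrial ribosome, was at −0.52 ± 0.18, Mmp19, a matrix metalloproteinase, at −0.49 ± 0.17, Mgll, which splits monoglycerides, at −0.44 ± 0.16 and Psmb3, a proteasome subunit, at −0.31 ± 0.11. For Zfp64, Zfp382, Mmp19 and Mgll the means of the other compounds were also all below the control mean. For Rab5c, Ehbp1l1, Smim3, Mrpl14 and Psmb3 they lay on both sides of it. All 24 genes named for low p had an adjusted p of 0.999996.

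The genes with a difference beyond 2-fold had SEs from 0.34 for Nr1d1 to 0.93 for Socs2, beside a median SE of 0.20 over all genes. Akr1b7, an aldose reductase-like enzyme, had the largest estimate at −2.09 ± 0.85 (95% interval −3.81 to −0.37). It read 6.45, 5.25, 4.77, 4.55 and 4.96 in DNP and 5.33 to 9.70 in the controls, whose SD was 1.74. Krt10, a keratin, had the largest estimate on the high side at 1.38 ± 0.59, with DNP 3 at 5.95 and the other DNP arrays at 7.89 to 8.85. Socs2, a feedback inhibitor of growth hormone signalling, was at −1.14 ± 0.93 and Bcl6, a repressor that this hormone lowers, at 1.18 ± 0.59, with SDs in DNP of 2.10 and 1.65. Hamp, the iron hormone hepcidin, was at −1.01 ± 0.54, with DNP 2 at 8.06 and the other DNP arrays at 10.18 to 11.25. Tsku was at −1.11 ± 0.58, Jun at −1.02 ± 0.45, Hspa1a at −1.01 ± 0.51 and A2m at 1.08 ± 0.68. These genes beyond 2-fold were picked out after their values were seen.

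The remaining lists had no call and no array separation. Over the 38 lists the median difference ran from −0.22 to 0.17, and 639 of the 740 genes on any list had an interval within 2-fold. The lowest median belonged to the 16 stellate cell and fibroblast markers, whose array means were −0.34 to −0.19 in DNP and −0.28 to 0.49 in the controls, with 3 genes above the control mean. Col1a1, the main fibrillar collagen, was their gene with an unadjusted p under 0.05 (−0.77 ± 0.33; limma, unadjusted p = 0.0233). In bulk liver fewer cells of a type and less RNA per cell cannot be told apart. The highest median belonged to the 20 genes of bile acid synthesis and transport, where Cyp7a1, the rate-limiting enzyme of bile acid synthesis, was at 0.65 ± 0.68, and at 0.35 without control 6.

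Immune and proliferation genes were also without a call. The 25 interferon response genes had a median of −0.19, and their mean on control 2 was 0.84 above the control mean, while the other controls were between −0.18 and 0.04. DNP 4 was at −0.52 and DNP 2 at −0.45, and the highest DNP array, at 0.02, was DNP 3. Irgm, an interferon-induced GTPase, was at −0.81 ± 0.32 (limma, unadjusted p = 0.0165). In the 33 cell cycle genes the median was 0.12, 26 genes were above the control mean, DNP 1 stood at 0.60 and the other DNP arrays between −0.07 and 0.31. Ccnb2, a mitotic cyclin, was at 1.20 ± 0.57 and Aurkb, a mitotic kinase, at 0.51 ± 0.19 (limma, unadjusted p = 0.0437 and 0.0121). The 14 heat shock genes had a median of −0.13. All 5 DNP arrays were below the control mean, between −0.29 and −0.06, and the controls ran from −0.34 to 0.56 on control 1. The 23 acute phase genes had a median of 0.00 with 20 intervals within 2-fold, and all 13 macrophage and 16 lymphocyte markers had intervals within 2-fold. Lcn2, which encodes lipocalin-2, an acute phase protein that binds iron carriers of bacteria, read 8.88 on DNP 3 and 6.39 to 7.04 on the other DNP arrays (difference −0.83 ± 0.90).

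**Figure D4:**
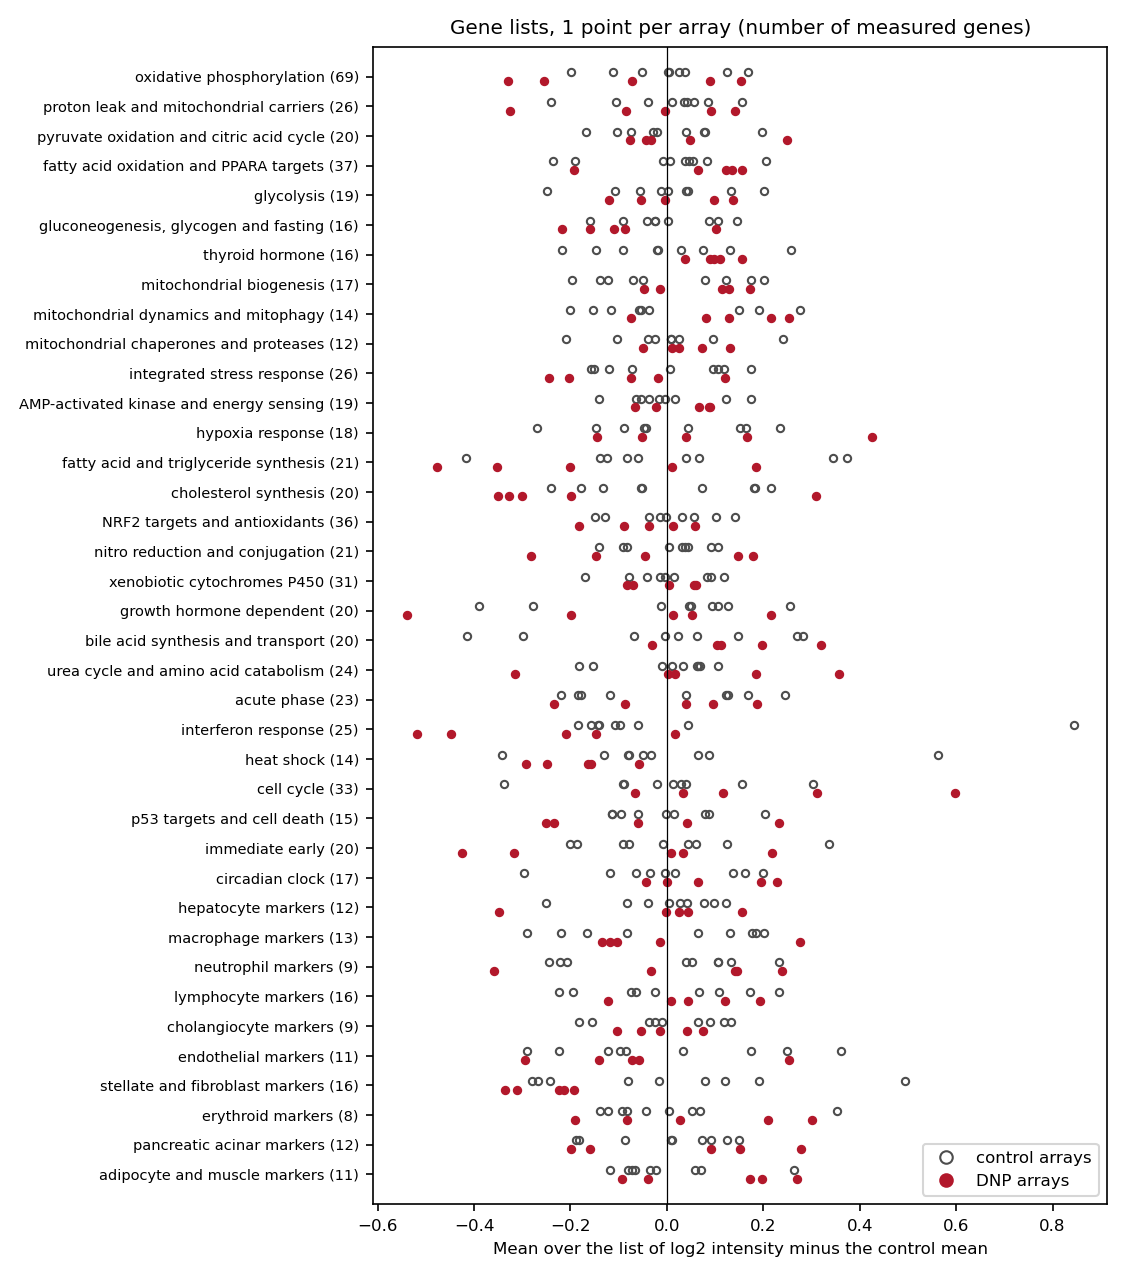
Mean over the genes of each of 38 lists of the log2 intensity minus the control mean of each gene, with 1 point per array (9 controls open, 5 DNP filled); the number of measured genes is in brackets. DNP and control arrays overlap in every list, control 2 stands at 0.84 in the interferon response and DNP 1 at 0.60 in the cell cycle.

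Against the mean of the other 5 compound groups, DNP liver differed in 256 of 14217 genes (1.8%; limma, adjusted p under 0.05), of which 140 were higher (0.985%) and 116 lower (0.816%) in DNP. With each array centred on its median there were 309 calls, 88 higher and 221 lower, so that the balance of directions depended on scaling. For 226 of these 256 genes the interval of the difference from control was within 2-fold, a smaller share than the 95.2% over all genes. Their median absolute difference was 0.75 from the other compounds and 0.18 from the controls, beside 0.11 from the controls over all genes. The 256 genes were selected by their difference from the other compounds, so these medians cannot show that DNP lay nearer to the controls. Against the mean of Caerulein and Roziglitazone alone, a comparison chosen after the data were seen, 0 genes were called by limma and 293 had an unadjusted p under 0.05. Without Roziglitazone 2 these numbers were 0 and 237. The difference between that comparison and the one with all 5 compounds was not itself tested. Both comparisons use the same 5 DNP arrays. Levels of the separate groups are given below for some of the genes only.

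The count depended on which arrays entered. It was 442 without ANIT 3, DMN 2 and Roziglitazone 2, with 254 of the 256 among them, and 103 without DNP 1 and control 5, with 85 shared. Leaving out a single DNP array gave 73 calls without DNP 1, 46 without DNP 2, 120 without DNP 3, 63 without DNP 4 and 135 without DNP 5, whereas leaving out a single control gave 203 to 302. In all 14 of these leave-outs 34 genes were called, 19 higher and 15 lower. Controls carry no weight in this difference and enter only through the shared spread, so that leaving out a control changes no estimate. No array of the other compounds was left out singly, and the dependence of these calls on single arrays of those groups was not tested.

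Stac3, an adaptor protein best known from muscle, was 2.79 ± 0.55 higher in DNP than in the other compounds (limma, adjusted p = 0.00617). Its level was 10.43 ± 0.84 (SD, n = 5) in DNP and 10.83 ± 0.41 (SD, n = 9) in controls, 10.13 on average in Caerulein and 10.07 ± 2.29 in Roziglitazone. In ANIT, DMN and NMF it was 5.52 ± 0.40, 6.47 ± 1.90 and 6.01 ± 0.63. The level of Stac3 in DNP was thus near that of the controls, and the means of those 3 compounds were far below it. Fmo1, a flavin monooxygenase, was 2.54 ± 0.42 higher (limma, adjusted p = 0.00186), with 11.18 ± 0.28 in DNP, 10.91 ± 0.32 in controls and 6.24 ± 0.97 in NMF. Fmo1 averaged 7.81 in ANIT and 8.08 in DMN, and 10.76 in Caerulein and 10.31 in Roziglitazone. Scd was 1.99 ± 0.29 higher (limma, adjusted p = 0.000288), with 12.54 ± 0.21 in DNP, 12.67 ± 0.47 in controls and 8.07 ± 0.34 in NMF. Scd averaged 10.24 in ANIT and 10.67 in DMN, and 11.74 in Caerulein and 12.04 in Roziglitazone. Nrep was 2.25 ± 0.41 and Akr1c1, an aldo-keto reductase, 2.17 ± 0.55 higher. The call of Akr1c1 was lost in 8 of 26 alternative settings (limma, adjusted p up to 0.111).

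On the low side Lcn2 was 3.38 below the other compounds by the fit (−3.38 ± 0.79; limma, adjusted p = 0.0227), with 7.18 ± 0.98 in DNP, 8.01 ± 0.96 in controls and 12.93 ± 0.30 in ANIT. Its level of 7.66 ± 0.85 in NMF was close to that in DNP, and its call was lost in 6 of 26 alternative settings (adjusted p up to 0.0751). Rnd1, a small GTPase of the cytoskeleton, was at −2.13 ± 0.40 (limma, adjusted p = 0.00343), with its DNP mean of 4.65 inside the background range. Abcc3, an efflux pump for conjugates, was at −2.30 ± 0.62 and Gstm3, a glutathione transferase, at −2.28 ± 0.61. Each of these calls was lost in 7 of 26 settings (limma, adjusted p up to 0.131 for Abcc3 and 0.123 for Gstm3). Abcc3 averaged 5.31 in DNP, 5.66 in controls, 5.22 in Caerulein and 6.11 in Roziglitazone, and 9.96, 6.41 and 10.37 in ANIT, DMN and NMF. Gstm3 averaged 6.57 in DNP, 6.92 in controls, 7.12 in Caerulein and 7.75 in Roziglitazone, and 10.92, 8.70 and 9.79 in ANIT, DMN and NMF. Hamp was at −2.06 ± 0.47, with 10.09 ± 1.21 in DNP, 11.09 ± 0.63 in controls and 11.41 to 12.93 as means of the other compounds, so that its DNP mean was the lowest of all 7 groups. Its call was lost in 2 of 26 settings (limma, adjusted p up to 0.128). DNP 2 stood at 8.06, and with single DNP or control arrays left out the Hamp difference ran from −2.35 to −1.55.

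**Figure D5:**
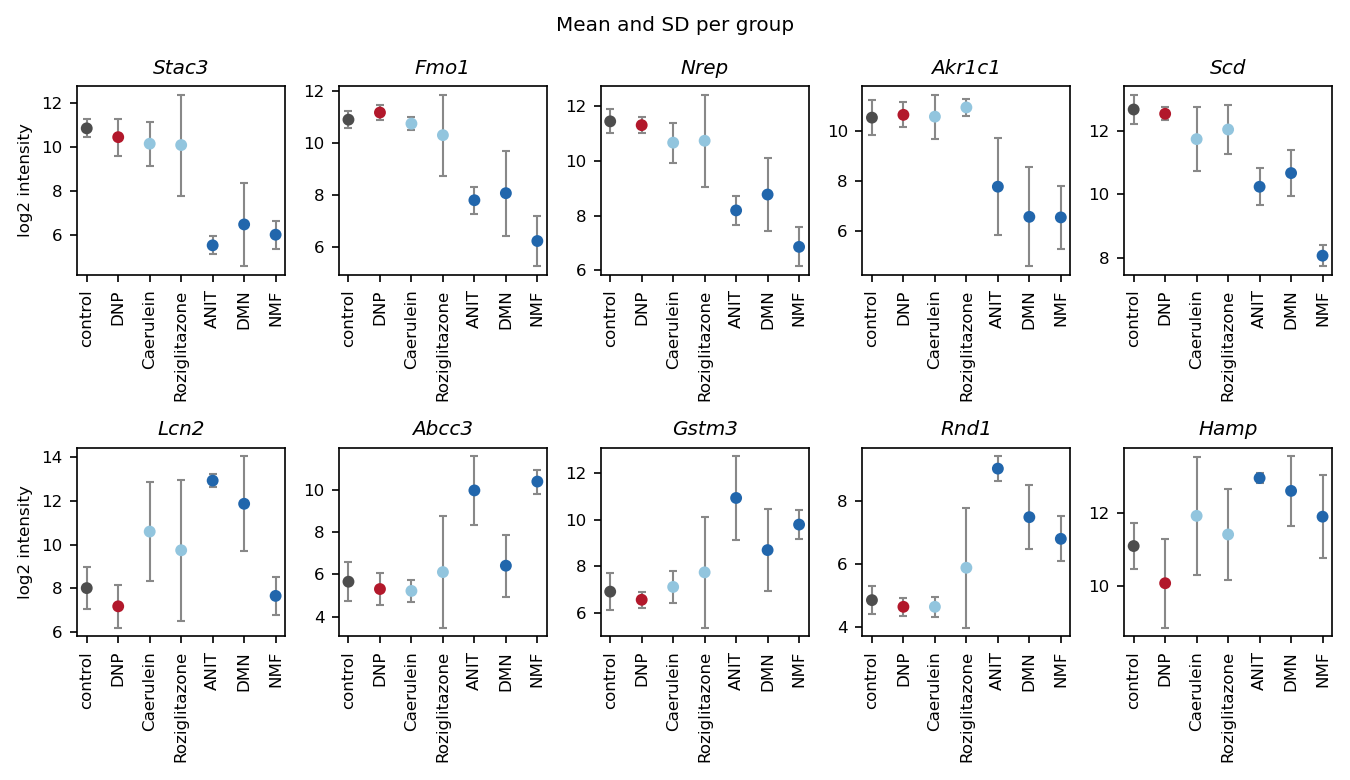
Mean log2 intensity and SD of the 5 genes with the largest difference in each direction between DNP and the other 5 compounds, for control (n = 9) and each compound (n = 5). DNP stands near the controls in most panels, and the means of ANIT, DMN and NMF stand apart from both in Stac3, Fmo1, Nrep, Akr1c1 and Scd.

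The calls against the other compounds touched 16 of the 38 lists. Of 36 NRF2 targets and antioxidants 6 were lower in DNP (0.816% of all genes were lower): Abcc3, Gpx2, Akr1b8, Srxn1, Gstp1 and Akr7a3. Of these, Akr1b8 and Gstp1 were called in all 14 leave-outs and the other 4 were not. Gpx2, a glutathione peroxidase, was at −1.76 ± 0.43 and read 4.92 ± 0.25 in DNP, 4.99 ± 0.42 in controls, 8.36 ± 1.35 in ANIT and 9.30 ± 1.28 in NMF. It averaged 4.73 in Caerulein, 5.42 in DMN and 5.56 in Roziglitazone. Gstp1, a glutathione transferase, was at −1.16 ± 0.24, with 8.63 ± 0.23 in DNP, 8.98 ± 0.62 in controls and 12.69 ± 0.71 in NMF. Its means in the other compounds were 8.97 in ANIT, 8.92 in Caerulein, 9.50 in DMN and 8.85 in Roziglitazone, so that NMF stood apart. Of 20 growth hormone dependent genes 4 were higher in DNP (0.985% of all genes were higher): the male P450 forms Cyp2c11 and Cyp2c13, the hydroxyacid oxidase Hao2 and the hormone's receptor Ghr. Only Ghr of these 4 was called in all 14 leave-outs. Cyp2c11 read 13.39 ± 0.11 in DNP and 13.38 ± 0.13 in controls, and was 1.42 ± 0.33 above the other compounds. Of 31 P450 genes 4 were higher, the Cyp2c forms again with Cyp4f4 and Cyp1a2, of which Cyp1a2 alone was called in all leave-outs.

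Counts in the metabolic lists are likewise to be read beside the 0.985% of all genes that were higher and the 0.816% that were lower. Pklr, the liver's pyruvate kinase, was 1.79 ± 0.34 higher than in the other compounds, with 11.35 ± 0.38 in DNP and 11.46 ± 0.41 in controls. With Pfkfb1 and Gckr, which regulate glycolysis in hepatocytes, it made 3 of 19 glycolysis genes higher, while Aldoa, an aldolase, was lower. Of 21 lipid synthesis genes Scd, Pklr and Elovl5 were higher, and of 24 genes of the urea cycle and amino acid catabolism Oat, Otc and Gls2. Of these metabolic genes Pklr, Pfkfb1, Gckr, Scd and Oat were called in all 14 leave-outs, and Aldoa, Elovl5, Otc and Gls2 were not. Oat, ornithine aminotransferase, was 1.73 ± 0.26 higher. It averaged 12.30 in DNP, 12.19 in controls, 12.03 in Caerulein and 11.87 in Roziglitazone. Its means were 9.45 in ANIT, 9.89 in DMN and 9.65 in NMF. Of 23 acute phase genes Lcn2, Hamp and Lbp were lower, and 0 of these 3 calls held in all 14 leave-outs of limma. Of the 69 genes of oxidative phosphorylation 1 was called (1.45%, near the 1.8% of all genes), and that call was not held in all leave-outs. It was Atp5if1, the inhibitor that stops ATP synthase from running backwards when the proton gradient collapses. Atp5if1 was at −0.82 ± 0.22 against the other compounds (limma, adjusted p = 0.041), and its level was 8.83 ± 0.66 in DNP, 8.77 ± 0.39 in controls and 10.76 ± 0.32 in NMF.

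The promoters of Gstp1 and Gpx2 are shown as the windows, among those of the called NRF2 targets examined, that hold the antioxidant response core. Both are 250-base windows of RefSeq, build GRCr8, written as before. Gstp1 lies at chr1:210769706-210769955 on the minus strand, where the AP-1 site TGANTCA, 61 to 55 bases before the start, overlaps the antioxidant response core TGACNNNGC, 61 to 53 bases before it. Gpx2 lies at chr6:101230034-101230283 on the minus strand, with TGACNNNGC on the opposite strand 13 to 5 bases before the start.
Gstp1: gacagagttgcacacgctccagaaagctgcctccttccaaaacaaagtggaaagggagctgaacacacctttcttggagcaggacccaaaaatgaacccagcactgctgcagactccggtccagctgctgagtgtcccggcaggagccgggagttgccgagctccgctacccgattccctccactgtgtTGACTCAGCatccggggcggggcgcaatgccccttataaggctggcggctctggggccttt
Gpx2: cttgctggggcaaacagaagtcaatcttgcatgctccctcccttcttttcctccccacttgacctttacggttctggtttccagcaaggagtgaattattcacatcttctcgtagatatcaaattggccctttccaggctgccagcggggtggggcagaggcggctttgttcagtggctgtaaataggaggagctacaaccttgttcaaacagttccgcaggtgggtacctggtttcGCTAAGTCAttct
Akr1b8 read 5.74 ± 0.33 in DNP and 11.79 ± 1.07 in NMF. Its means were 6.03 in controls and 5.82 to 7.33 in the other compounds. The window of Akr1b8 held none of the motifs searched. That of Srxn1 held TGANTCA but not TGACNNNGC, and that of Scd, which was higher in DNP, held TGACNNNGC. TGANTCA was found in 6.34% and TGACNNNGC in 10.1% of the 33465 windows, on either strand.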

How the data were processed

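Affymetrix arrays of 39 rat livers were used, 1 per animal per the labels. The deposited value of a probe set is a linear intensity (5.4 to 23152.1); the submitters' processing notes name RMA and affy without versions, and which step returned the values to a linear scale is not given in the sources used here. The log2 was taken. Of 31099 probe sets, 20826 had 1 gene symbol; 57 control probe sets, 436 with several symbols and 9780 with none were left out. The probe set with the highest mean stood for a gene, and no dim genes were removed. All 39 arrays entered 1 limma model of group means (limma 3.58.1, R 4.3.3), with Benjamini-Hochberg adjustment over 14217 genes. It was also run on simulated data with shifts planted in DNP. The noise there was drawn independently for each gene and array, so that run does not cover deviations shared between arrays. The titles call the rats biological replicates.

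The members and lists were chosen with earlier results of these data known. Named were the 12 uncalled genes of lowest p per direction, fixed genes of the pathways, list members called and the 5 largest calls per direction against the other compounds. Of 853 list entries 766 were measured. Alternatives were other scalings, filters, probe set rules, array weights, covariates, a replicate block and leaving out arrays.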

Additional observations from a re-analysis of the deposited data

Results flagged for a closer look

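Single arrays stood far from the rest of their group in 14 of 110 groups of values tested, where chance gives about 1 in 20. Of these 14 readings 5 came from DNP 1 and 2 on control 5. DNP 1 gave 9.99 for the 3′ end and 7.24 for the 5′ end of GAPDH, against at least 12.68 and 12.03 on the other DNP arrays, and control 5 gave 8.09 for the 3′ end against at least 12.75. Ttr was lowest on DNP 1 (13.43, others from 13.85) and on control 5 (13.31, others from 13.80). On DNP 1 Dbp was low at 5.92 (others from 7.32) and Abcc3 high at 6.58 (others up to 5.26). The SD over genes of an array's deviation from the rest of its group was 0.69 for DNP 1 and 0.75 for control 5.

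Lcn2 was high on DNP 3 at 8.88, with the other DNP arrays up to 7.04. Among the controls, control 8 was low in Pdk4 (8.32, others from 9.69) and in Nqo1 (8.44, others from 9.68). Cyp1a1 was high on control 1 at 8.30, with the others up to 6.73. Nifk was high on control 4 (9.64, others up to 9.34), Psmb3 low on control 3 (11.00, others from 11.22) and LOC102549032 low on control 7 (3.80, others from 4.43).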

How the results depend on the processing

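DNP against control gave 0 calls by limma as reported and under every alternative run, 27 settings in all, with 146 to 739 genes at an unadjusted p under 0.05. The lowest adjusted p of any of the 45 genes checked was 0.129, reached with array weights, and 35 of the 45 kept their direction in all settings. The differences that turned sign were near 0 as reported, apart from Hmox1 at 0.144 and Per2 at 0.115, and the cause was not tested. Centring each array on its median gave Ucp2 −0.028, Slc25a4 −0.022, Ppargc1a −0.018, Thrsp −0.031. Quantile normalization gave Slc25a4 −0.020, Ppargc1a −0.028, Ttr 0.022. The mean over probe sets gave Ppargc1a −0.0064, Per2 −0.056. Array weights gave Slc25a4 −0.11, Ttr 0.011, Pck1 0.055. Leaving out arrays low in GAPDH 5′ gave Ppargc1a −0.048, Ttr 0.033, Per2 −0.0061. GAPDH as a covariate gave Ddit3 0.0024. Without DNP 1 and control 5 the values were Slc25a4 −0.025, Ppargc1a −0.0089, Ttr 0.030, Pck1 0.039. Leaving out single arrays gave Ucp2 −0.089 to 0.096, Slc25a4 −0.071 to 0.14, Ppargc1a −0.056 to 0.13, Thrsp −0.029 to 0.063, Ttr −0.075 to 0.098, Pck1 −0.075 to 0.020, Dio1 −0.23 to 0.14, Ddit3 −0.19 to 0.041, Hmox1 −0.29 to 0.38, Per2 −0.0069 to 0.27.

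DNP against the other compounds gave 256 calls as reported, 442 without ANIT 3, DMN 2 and Roziglitazone 2, and 874 with array weights. There were 136 without arrays low in GAPDH 5′, 103 without DNP 1 and control 5, and 46 to 302 with single DNP or control arrays left out. Against the mean of Caerulein and Roziglitazone there were 0 calls, with and without Roziglitazone 2. Centring on the median gave 309 calls, 88 higher and 221 lower, where the median of all genes moved from 0.08 to 0.01. Stac3, Fmo1, Nrep and Scd kept their calls in all 26 alternative settings with all 5 compounds and Rnd1 in the 25 that held it (the filter on the 30% lowest genes removed it), and Akr1c1, Lcn2, Abcc3, Gstm3 and Hamp lost theirs in some.

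The replicate numbers were not taken to pair the samples, because same-numbered deviations correlated at −0.30 to 0.55 and not all above 0.1. DNP 2 and DNP 3 correlated best with the control of their own number (0.55 and 0.37), and DNP 1 with control 5 (0.73; 0.17 with control 1). With the replicate number as a block there were 0 calls against control and 243 against the other compounds, and the block gave Dio1 0.052, Ttr 0.052, Ddit3 0.020. The 10216 probe sets with no or several symbols gave 0 calls and 112 at an unadjusted p under 0.05. Signal over background limits 974 genes, whose means in both groups lay within the background range or below it.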
